A study of Homo sapiens with 15 samples.

Results

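The 5 RNA-seq libraries of CAKi-1 cells with knockout (KO) of *ANGPTL4* did not form 1 cluster. KO 1 and KO 4 lay close to each other, and KO 2, KO 3 and KO 5 lay close to each other. The comparison made here is between those 2 libraries and those 3 libraries, out of 9 CAKi-1 libraries and 15 libraries in the series. The sets were chosen by the distances between the libraries over the log2(TPM + 1) of all 16296 genes. TPM is a level corrected for transcript length and relative to the total of its library, so a change in abundant genes shifts the values of the others. The sample labels give all 5 the same genotype, with no batch, clone or date. An unrecorded batch, culture or clone mix was not tested. The split was read from the measured values and not from the labels. For that reason every value between the sets is a description and no test is given for it.

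CAKi-1 is a human clear cell renal cell carcinoma (ccRCC) line with wild-type *VHL*. For the KO cells, CRISPR-Cas9 protein and a guide RNA were introduced, single clones that had lost *ANGPTL4* RNA were grown, and those clones were combined into 1 population, so each KO library is from a mixture of clones. The 4 WT libraries serve only as a reference level here. The methods of the study name parental cells as the CAKi-1 WT control, whereas the description deposited with the data names combined clones. The labels give RPMI with serum as the medium (the study's methods give DMEM) and harvest of growing cells before they were confluent, with no treatment in either genotype. A second ccRCC line, 786O, with mutant *VHL*, has 3 WT and 3 KO libraries, both from combined clones. In bulk RNA, fewer cells of a kind and less RNA per cell cannot be told apart.

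ANGPTL4 is a secreted protein that inhibits lipoprotein lipase, and its gene is a target of the hypoxia-inducible factors (HIF) and of the PPAR fatty acid receptors. The programmes described below have well-known regulators. E2F factors switch on the genes of DNA replication as cells enter S phase. HIF is held low by VHL and oxygen and raises genes of glycolysis and pH control. NF-kB acts downstream of interleukin-1 and raises chemokine and acute phase genes.

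*ANGPTL4* itself (chromosome 19, 8363289 to 8374370, hg38) was low in all 5 KO libraries, which checks the genotype labels. It was measured at 7.26 TPM in KO 1, 6.47 in KO 4, 2.87 in KO 2, 2.87 in KO 3 and 2.90 in KO 5, against 74.9, 83.2, 86.9 and 71.7 in WT 1 to 4. The KO libraries did not overlap with WT, and KO 1 and 4 kept 2.38 times as much *ANGPTL4* RNA as KO 2, 3 and 5. KO against WT gave a log2 fold change of -3.96 ± 0.25 over the 9 libraries (SE, limma, adjusted p = 1.2e-05), and an exact two-sided permutation test over the 126 ways to assign the labels gave p = 0.0159, the smallest it can give. The RNA level says nothing of the edited protein.

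The distance between libraries, taken as the Euclidean distance over all genes, was 23.5 to 27.0 for the 4 pairs within a set and 41.2 to 48.4 for the 6 pairs between sets. Within a set 35 to 59 genes differed by at least 2-fold on the log2(TPM + 1) scale, and between sets 137 to 326 did. In 786O the 3 KO libraries lay 22.1 to 23.1 apart, slightly closer than libraries within a set. Both sets lay away from WT, KO 2, 3 and 5 at 50.3 to 62.8 and KO 1 and 4 further off at 69.9 to 81.6. The WT libraries lay 21.9 to 37.6 from each other.

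**Figure D1:**
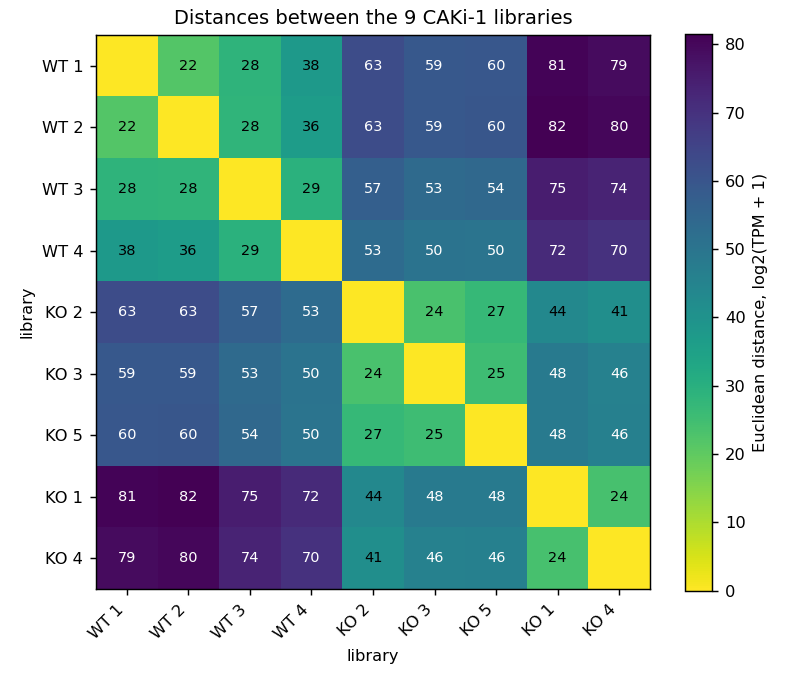
Euclidean distance on log2(TPM + 1) over 16296 genes between each 2 of the 9 CAKi-1 libraries, with both axes naming the library and the colour and number giving the distance. The pair KO 1 and KO 4 and the trio KO 2, KO 3 and KO 5 form lighter blocks, and the distances between those blocks are 41.2 to 48.4.

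Libraries within a set also shared features of the whole library. Genes of at least 1 TPM numbered 12874 in KO 1 and 12844 in KO 4, 12627 to 12646 in KO 2, 3 and 5, and 12482 to 12625 in WT. The 10 most abundant genes held 10.9% of the TPM in each of KO 1 and KO 4 and 8.39% to 9.36% in KO 2, 3 and 5. *FTH1*, the ferritin heavy chain, was at 17954 and 19297 TPM in KO 1 and 4, at 10296, 8779.8 and 11441 in KO 2, 3 and 5, and at 4807 to 8180.4 in WT. The 13 mitochondrially encoded genes held 8.00%, 7.89% and 7.84% in KO 1, 4 and 5 and 6.87% and 6.58% in KO 2 and 3, so KO 1 and 4 were highest but KO 5 lay next to them. The ribosomal protein genes held 16.8% and 16.4% in KO 1 and 4, less than the 17.8%, 17.6% and 17.3% in KO 2, 3 and 5. The part of these features in the results below was not tested.

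To find the genes behind the distance, the gap between the nearest libraries of the sets was taken for each gene on the log2(TPM + 1) scale, and is called the margin here. A positive margin means that both KO 1 and KO 4 were above KO 2, 3 and 5, a negative one that both were below, and 0 that the sets overlapped. With a margin of at least 1, 37 genes were higher in KO 1 and 4 (0.227% of all genes) and 10 were lower (0.0614%). Those counts were 81 and 28 without KO 4, 71 and 19 without KO 2, 16 lower genes without KO 1, and 95 and 33 with a pseudocount of 0.1 in place of 1. With a margin of at least 0.5, 461 were higher (2.83%) and 381 lower (2.34%), and by any margin 5517 were higher (33.9%) and 4253 lower (26.1%). Those shares are the background for each count below. The difference of the set means had a median of 0.03 over all genes, with 95% of genes between -0.63 and 0.72. Nearest to the threshold of 1 were *LCN2* just inside and *FBN1* just outside (0.997) among higher genes, and *MCM4* inside (-1.01) and *EEPD1* outside (-0.99) among lower genes. All 37 and all 10 had a mean of at least 1 TPM.

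Genes of cell division were lower in KO 1 and 4. Of the 10 genes with a margin of at least 1, E2F1, MYBL2, UHRF1, PKMYT1, MCM4 and PSMC3IP act in the cell cycle, in DNA replication or in recombination. The promoters of 3 E2F-responsive genes are shown because the letters TTTNNCGC, a form of the E2F motif, recur in them, and they were chosen for that match. The promoter of MYBL2 holds no match. The sequences are from RefSeq (GRCh38.p14), 250 bases before to 50 after the start of the gene, and the capitals mark that motif on either strand, with overlapping matches joined. E2F1 lies at chr20:33686336-33686635 (minus strand), MCM6 at chr2:135876394-135876693 (minus strand) and UHRF1 at chr19:4909251-4909550 (plus strand).
E2F1: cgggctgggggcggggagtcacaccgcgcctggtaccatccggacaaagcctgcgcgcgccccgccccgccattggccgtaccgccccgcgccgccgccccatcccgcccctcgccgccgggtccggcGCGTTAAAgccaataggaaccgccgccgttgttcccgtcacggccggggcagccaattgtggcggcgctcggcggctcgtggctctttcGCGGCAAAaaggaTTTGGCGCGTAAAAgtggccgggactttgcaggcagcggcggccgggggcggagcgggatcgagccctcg
MCM6: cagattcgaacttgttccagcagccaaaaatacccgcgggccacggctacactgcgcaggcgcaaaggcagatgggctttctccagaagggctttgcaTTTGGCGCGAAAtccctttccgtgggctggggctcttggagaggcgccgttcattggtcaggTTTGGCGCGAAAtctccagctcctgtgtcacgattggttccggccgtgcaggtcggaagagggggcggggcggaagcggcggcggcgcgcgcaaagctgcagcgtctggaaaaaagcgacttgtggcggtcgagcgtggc
UHRF1: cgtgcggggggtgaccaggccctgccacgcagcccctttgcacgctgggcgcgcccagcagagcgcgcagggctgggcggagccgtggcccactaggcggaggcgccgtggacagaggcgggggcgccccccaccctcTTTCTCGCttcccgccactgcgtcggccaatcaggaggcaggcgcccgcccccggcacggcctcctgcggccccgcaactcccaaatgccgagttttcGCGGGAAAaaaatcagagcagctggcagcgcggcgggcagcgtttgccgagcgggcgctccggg

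The motif was found in the promoters of 7 of the 18 DNA replication and mitosis genes in the RefSeq table (38.9%), in 60 of 310 genes lower by a margin of at least 0.5 (19.4%), in 24 of 347 higher by that margin (6.92%) and in 1208 of all 12319 matched genes (9.81%). A match is a description of the letters and not of binding.

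*E2F1*, the factor that switches on S phase genes, was at 10.4 and 10.8 TPM in KO 1 and 4, and at 24.6, 25.1 and 24.1 in KO 2, 3 and 5. WT stood at 25.1, 25.6, 26.2 and 27.2, so KO 2, 3 and 5 lay at the lower edge of WT and KO 1 and 4 far below it. *MYBL2*, an E2F target that drives mitotic genes, was at 36.3 and 36.2 against 78.0, 84.2 and 76.6 TPM, with WT between 84.1 and 90.7. *UHRF1*, which carries DNA methylation over to new strands, was at 18.3 and 18.2 against 38.1, 45.6 and 40.6 TPM, with WT at 48.6 to 60.5. For these 3 genes neither KO 1 nor KO 4 overlapped with any other CAKi-1 library.

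*PKMYT1*, a kinase that restrains CDK1, was at 15.8 and 16.0 TPM in KO 1 and 4, at 37.7, 41.0 and 39.6 in KO 2, 3 and 5, and at 53.7 to 57.7 in WT. *MCM4*, a subunit of the replicative helicase, was at 34.9 and 36.8 against 77.8, 75.1 and 98.3 TPM, with WT at 98.8 to 107. *PSMC3IP*, which works in homologous recombination, was at 10.2 and 10.1 against 22.5, 27.9 and 24.5 TPM, with WT at 23.4 to 26.7. All 3 were 2.34 to 2.49 times lower in KO 1 and 4 than in KO 2, 3 and 5 by the mean TPM.

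The whole list of 21 DNA replication and mitosis genes went the same way. All 21 were lower in KO 1 and 4 by some margin, 18 by at least 0.5 and 0 were higher, with a median difference of -0.78. Their summed level was 1110.4 and 1100.3 TPM in KO 1 and 4, 1875, 1955 and 1975 in KO 2, 3 and 5, and 2196 to 2265 in WT. Among members, *TYMS*, the thymidylate synthase, was at 138 and 139 against 254, 252 and 249 TPM, and *PCNA*, the replication clamp, at 90.6 and 87.9 against 156, 167 and 152. *AURKB*, a mitotic kinase, was at 49.6 and 46.6 against 90.2, 88.8 and 98.2 TPM, and *MKI67*, the Ki-67 antigen, at 26.7 and 26.6 against 38.5, 41.1 and 45.9. *MCM6*, another helicase subunit, was at 20.5 and 23.2 against 36.0, 39.9 and 37.3 TPM. The members nearest to an overlap were the cyclins *CCNA2* (15.5 and 21.8 against 26.1, 22.7 and 25.7 TPM) and *CCNB2* (31.6 and 26.8 against 41.9, 41.9 and 44.7 TPM). *PCNA*, *MKI67*, *CCNA2*, *CCNB2* and *MCM6* were picked after their values were seen.

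The comparison of KO with WT depended on which KO libraries entered it. With the 9 libraries together, 0 of the 21 passed in either direction (limma, at least 2-fold with adjusted p of at most 0.05). Of all genes, 2.21% were called higher and 1.12% lower in that fit. With KO 1 and 4 left out, 0 were called, where 1.6% of all genes were called higher and 0.927% lower. At that adjusted p alone 10 were lower and 2 higher (22.2% and 16.7% of all genes), and the median log2 fold change was -0.21. With KO 2, 3 and 5 left out, 9 were called lower (2.68% of all genes), 20 were lower by adjusted p alone (27.2% of all genes), and the median was -0.97. The sets were chosen on these same values, so these counts describe the split and do not test it. In 786O, whose libraries did not enter the choice of the sets, 0 of the 21 genes were called lower and 1 was called higher, near the shares of all genes there (5.19% and 2.43%).

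**Figure D2:**
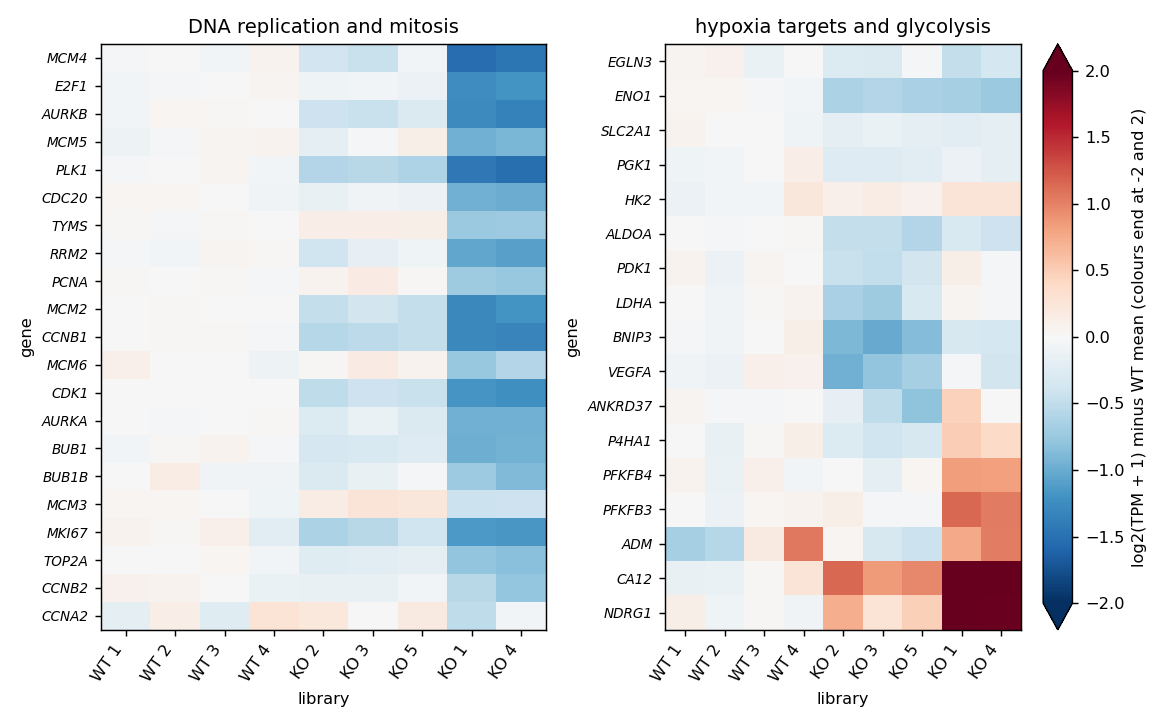
Level of each gene of the DNA replication and mitosis list (left) and of the hypoxia list (right) in the 9 CAKi-1 libraries, as log2(TPM + 1) minus the mean of the 4 WT libraries, with libraries on the horizontal axis and colours that end at -2 and 2. The columns of KO 1 and KO 4 are the darkest blue for the replication genes, whose median difference from KO 2, 3 and 5 is -0.78.

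The other genes lower by a margin of at least 1 act in signalling and differentiation. *FOSL1*, a subunit of the AP-1 factor, was at 53.3 and 53.7 TPM in KO 1 and 4, at 119, 164 and 144 in KO 2, 3 and 5 and at 284 to 326 in WT. *DKK1*, a secreted Wnt antagonist, followed the same order at 0.963 and 1.26, then 3.88, 5.51 and 5.19, then 11.2 to 20.4 TPM. Over the 9 libraries the log2 fold changes of KO against WT were -1.64 ± 0.34 for *FOSL1* and -2.08 ± 0.39 for *DKK1* (SE, limma). Both genes were picked for their low values in KO 1 and 4, which enter that fit, so these fold changes are a description. With KO 1 and 4 left out they were -1.09 ± 0.11 and -1.49 ± 0.22.

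*RGS4*, which shortens G protein signals, was at 10.4 and 16.1 against 37.9, 42.1 and 53.1 TPM, but the WT libraries spread from 14.2 to 43.6 and overlapped with both sets. *KRTAP2-3*, a keratin-associated protein, was at 0.973 and 0.730 against 4.03, 6.62 and 5.62 TPM, and it has close copies among which reads can be split, so its level is uncertain. *HBEGF*, an EGF receptor ligand with a margin of -0.93, was at 14.5 and 17.9 against 34.9, 42.7 and 35.6 TPM. *EGR1*, an immediate early factor, was at 5.38 and 6.80 against 10.8, 12.1 and 12.1 TPM, whereas *DUSP1*, a phosphatase that limits the same MAP kinases, was higher at 95.0 and 75.4 against 39.9, 47.2 and 42.3. Of the 14 YAP target and immediate early genes, 4 were lower and 1 higher by at least 0.5.

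The largest margin of all was that of *MIA2*, which encodes a protein of secretory cargo export at the endoplasmic reticulum. It was at 60.0 and 54.4 TPM in KO 1 and 4, at 10.2, 13.3 and 13.5 in KO 2, 3 and 5, and at 9.92 to 13.2 in WT. *RAPGEF3*, the cyclic AMP sensor EPAC1, had the same form at 70.7 and 70.4 TPM against 24.95, 22.8 and 21.6, with WT at 24.9 to 29.0. *FAM43A* was at 55.6 and 32.8 against 9.56, 12.9 and 10.3 TPM, with WT at 8.16 to 13.0. For these 3 genes KO 2, 3 and 5 overlapped with WT, and KO 1 and 4 alone were higher.

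Other genes were graded, with WT lowest, KO 2, 3 and 5 between and KO 1 and 4 highest. *FN1*, fibronectin, was at 181, 197, 219.7 and 287 TPM in WT, at 3879, 3311 and 3599 in KO 2, 3 and 5, and at 9235 and 8692 in KO 1 and 4. *ACSL4*, which activates arachidonic acid, was at 81.3 to 125 in WT, then 173, 149 and 155, then 428 and 419 TPM. *AQP9*, a glycerol and water channel, was at 0.206 to 1.66, then 3.98, 3.27 and 3.13, then 11.4 and 12.2 TPM. *GPR15LG*, a chemoattractant peptide, was at 0.141 to 0.497, then 1.42, 2.67 and 2.45, then 10.9 and 9.32 TPM.

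Across the 37 genes, KO 1 and 4 were above every WT library in 37. That is the case for 67.7% of the genes higher by any margin and 32.9% of all genes, and the choice of genes that are high in KO 1 and 4 favours it. KO 2, 3 and 5 were all above every WT library in 21 (28.1% of the genes higher by any margin), all under every WT library in 3 (21.1% of those) and neither in 13. Of the 461 genes with a margin of at least 0.5, 222 were graded in this way. Among the 381 lower genes, KO 2, 3 and 5 were all under every WT library in 201, and KO 1 and 4 in 362. Of the genes lower by any margin, 38.9% and 78.4% had those orders. A library order was also seen within WT. WT 4 was the highest WT library in 26 of the 37 genes (70.3%) and in 27.5% of all genes, and WT 3 and 4 were both above WT 1 and 2 in 22 of them (59.5%) and in 16.1% of all genes.

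**Figure D3:**
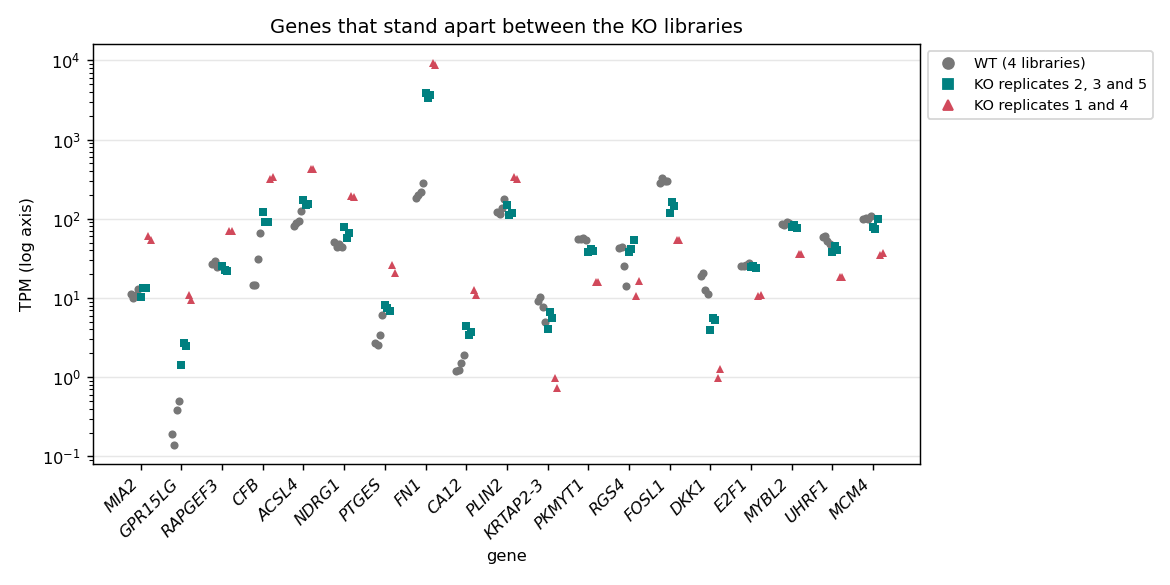
TPM on a log axis of 19 genes in the 9 CAKi-1 libraries, with 1 point per library. The first 10 genes were higher and the last 9 lower in KO 1 and 4 (triangles) than in KO 2, 3 and 5 (squares), and WT (circles) lies at the squares for *MIA2* and *E2F1* and far below them for *FN1*.

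Of the genes with a margin of at least 1, 3 encode enzymes of prostaglandin synthesis. *PTGS2*, the inducible cyclooxygenase, was at 11.3 and 8.29 TPM against 3.18, 2.70 and 2.62, with WT at 0.784 to 3.27. *PTGES*, which makes prostaglandin E, was at 26.1 and 20.4 against 8.14, 7.44 and 6.91 TPM, with WT at 2.53 to 6.17. *PTGDS*, which makes prostaglandin D and lies outside the naming rule, was at 29.0 and 28.7 against 11.2, 13.4 and 7.66 TPM, with WT at 3.10 to 5.36. These 3 were grouped after their values were seen, and the other enzymes of the pathway were not counted.

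Part of the genes downstream of NF-kB were higher in KO 1 and 4, and the examples below also differed among WT libraries. The promoters of *CXCL6* (chr4:73836428-73836727, plus strand) and *NFKBIA* (chr14:35404700-35404999, minus strand) are shown because both hold the letters GGGANNTTC, part of the NF-kB motif, and they were chosen for that match. The promoters of *CXCL8* and *CFB*, described below, hold no match to these exact letters, and other forms of the motif were not searched. The capitals mark the letters GGGANNTTC on either strand.
CXCL6: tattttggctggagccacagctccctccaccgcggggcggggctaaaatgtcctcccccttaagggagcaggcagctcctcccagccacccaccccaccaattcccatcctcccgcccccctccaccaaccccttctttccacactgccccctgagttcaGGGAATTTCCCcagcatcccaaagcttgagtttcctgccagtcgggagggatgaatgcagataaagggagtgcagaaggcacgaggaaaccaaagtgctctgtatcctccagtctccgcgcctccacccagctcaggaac
NFKBIA: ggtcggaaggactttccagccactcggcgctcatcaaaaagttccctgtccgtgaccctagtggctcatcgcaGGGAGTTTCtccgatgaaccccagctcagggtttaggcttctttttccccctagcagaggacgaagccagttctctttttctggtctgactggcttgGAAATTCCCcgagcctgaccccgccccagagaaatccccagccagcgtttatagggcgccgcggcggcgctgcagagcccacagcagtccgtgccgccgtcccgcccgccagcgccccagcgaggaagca

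Those letters were in the promoters of 5 of 8 chemokine genes (62.5%), 20 of 347 genes higher by a margin of at least 0.5 (5.76%), 22 of 310 lower by that margin (7.10%) and 504 of all 12319 (4.09%).

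*CXCL6*, which attracts neutrophils, was at 10011 and 10026 TPM in KO 1 and 4, at 5956, 5072 and 4485 in KO 2, 3 and 5, and at 10.7, 17.6, 303 and 1140.3 in WT 1 to 4. *CXCL8*, interleukin-8, was at 2177 and 2029 against 1252, 1174 and 964 TPM, with WT at 7.51, 12.1, 278 and 1346. WT 4 lay above KO 2, 3 and 5 for *CXCL8* and below them for *CXCL6*. Of 11 chemokines 5 were higher by at least 0.5, 3 overlapped and 0 were lower, with a median difference of 0.48, and their summed level was 20709.7 and 20230.4 TPM in KO 1 and 4, 14594, 13374 and 11513 in KO 2, 3 and 5, and 88.5, 136, 1552 and 6176 in WT 1 to 4.

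*NFKBIA*, the inhibitor that feeds back on NF-kB, was at 212 and 195 against 137, 118 and 117 TPM, with WT at 29.4, 35.9, 67.1 and 137. *CSF3*, the granulocyte growth factor, was at 5.74 and 4.28 against 1.80, 2.06 and 1.77 TPM, while WT 4 held 6.51, more than any KO library. Of 17 genes of the IL-1, IL-6 and NF-kB list 6 were higher by at least 0.5 and 0 lower (median 0.39), and 4 overlapped between the sets. *CSF2*, another myeloid growth factor and the 1 member lower by any margin, was at 65.0 and 59.5 against 98.8, 103 and 81.4 TPM, with WT at 5.04, 10.4, 79.8 and 236. It was picked after its values were seen. Of 10 epithelial defence and acute phase genes 4 were higher and 0 lower (median 0.61).

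*CFB*, complement factor B, was at 321 and 332 TPM in KO 1 and 4, at 121, 91.6 and 91.4 in KO 2, 3 and 5, and at 14.5, 14.7, 31.1 and 66.2 in WT. *LCN2*, which binds bacterial siderophores, was at 335 and 307 against 153, 117 and 127 TPM, with WT at 1.42 to 25.1. *C3*, the central complement protein, was at 1365 and 1345 against 731, 641 and 722 TPM. In none of these 3 genes did WT reach either KO set. Of 12 genes of MHC class I presentation 0 were set apart by at least 0.5, near the background, but 10 were higher by a smaller margin, against 33.9% of all genes, with a median of 0.36. Of 17 interferon-stimulated genes 0 were set apart by 0.5, 7 were higher and 4 lower by a smaller margin, and the median was 0.02. *HLA-B* was at 1095 and 1076 against 798, 759 and 739 TPM.

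Most hypoxia targets were higher in KO 1 and 4. Of 17 genes, 14 were higher and 2 lower by any margin, 7 were higher by at least 0.5 and 0 lower, with a median difference of 0.60. *NDRG1*, a stress-induced growth regulator, was at 193 and 187 TPM against 78.6, 57.0 and 65.4, with WT at 44.3 to 51.2. *CA12*, a carbonic anhydrase, was at 12.7 and 11.0 against 4.40, 3.39 and 3.75 TPM, with WT at 1.20 to 1.90. *PFKFB3*, which speeds glycolysis, was at 202 and 186 against 98.7, 88.3 and 88.7 TPM, with WT at 83.4 to 95.5.

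Relative to WT the members differed. *BNIP3*, a mitophagy receptor and another of the 7, was at 168 and 164 against 111, 104 and 114 TPM, with WT at 199 to 227, and *VEGFA* was at 54.1 and 42.3 against 27.8, 31.3 and 34.5, with WT at 50.8 to 59.1. *SLC2A1*, the glucose transporter GLUT1, overlapped at 79.7 and 81.2 against 80.9, 84.1 and 81.2 TPM. *BNIP3*, *VEGFA* and *SLC2A1* were picked after their values were seen. The median log2 fold change of the list against WT was -0.24 with KO 1 and 4 left out and 0.04 with KO 2, 3 and 5 left out, and 2 of the 17 passed the 2-fold call upward and 0 downward when the 9 libraries entered together (2.21% and 1.12% of all genes). *VHL* itself overlapped between the sets, at 26.0 and 26.0 against 25.2, 26.9 and 27.8 TPM. The letters ACGTG, the core of the HIF motif, were in 7 of 15 promoters of the list (46.7%), in 21.0% of genes higher by at least 0.5 and in 25.3% of all.

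Lipid genes moved in part. *PLIN2*, which coats lipid droplets, was at 333 and 314 TPM in KO 1 and 4, at 149, 111 and 118 in KO 2, 3 and 5 and at 115 to 176 in WT. *PNPLA2*, the first lipase of droplet breakdown, was at 102 and 104 against 67.6, 60.6 and 58.3 TPM, and *HILPDA*, which inhibits that lipase, at 29.8 and 25.4 against 17.6, 15.3 and 13.7. With *ANGPTL4*, those 3 were the 4 of 17 lipase and droplet genes higher by at least 0.5, and 0 were lower. *LIPA*, the lysosomal acid lipase, overlapped at 33.3 and 33.9 against 33.0, 33.8 and 33.2 TPM, and all 5 KO libraries lay above WT at 21.1 to 25.1. *LPL* was below 1 TPM in all 9 libraries.

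Of 20 fatty acid oxidation and PPAR genes 2 were higher by at least 0.5 and 0 lower, 5 overlapped, and the median difference was 0.22. The 2 were *CPT1B* and *IRS2*. *CPT1B*, a carnitine palmitoyltransferase of the mitochondrial membrane, was at 14.8 and 14.6 against 6.44, 6.50 and 7.53 TPM, with WT at 1.42 to 2.97. *IRS2*, an insulin receptor substrate, was at 16.2 and 17.9 against 8.73, 7.18 and 7.75 TPM, with WT at 3.61 to 4.80. Its relative *IRS1* nearly overlapped, at 13.3 and 16.3 against 12.6, 12.6 and 11.5 TPM (margin 0.07). *CPT1A* was at 1.64 and 1.61 against 1.17, 0.859 and 1.38 TPM, and *PPARGC1A*, a coactivator of mitochondrial genes, at 2.30 and 2.10 against 1.51, 1.64 and 1.17.

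Genes of cholesterol supply tended lower. *INSIG1*, which holds the sterol sensor in the endoplasmic reticulum, was at 19.7 and 19.3 TPM in KO 1 and 4, at 36.4, 37.5 and 33.8 in KO 2, 3 and 5 and at 34.0 to 46.5 in WT. *STARD4*, a sterol carrier, went the other way at 27.6 and 32.4 against 18.5, 14.4 and 16.9 TPM. Of 18 genes 3 were lower and 1 higher by at least 0.5, with a median difference of -0.23.

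**Figure D4:**
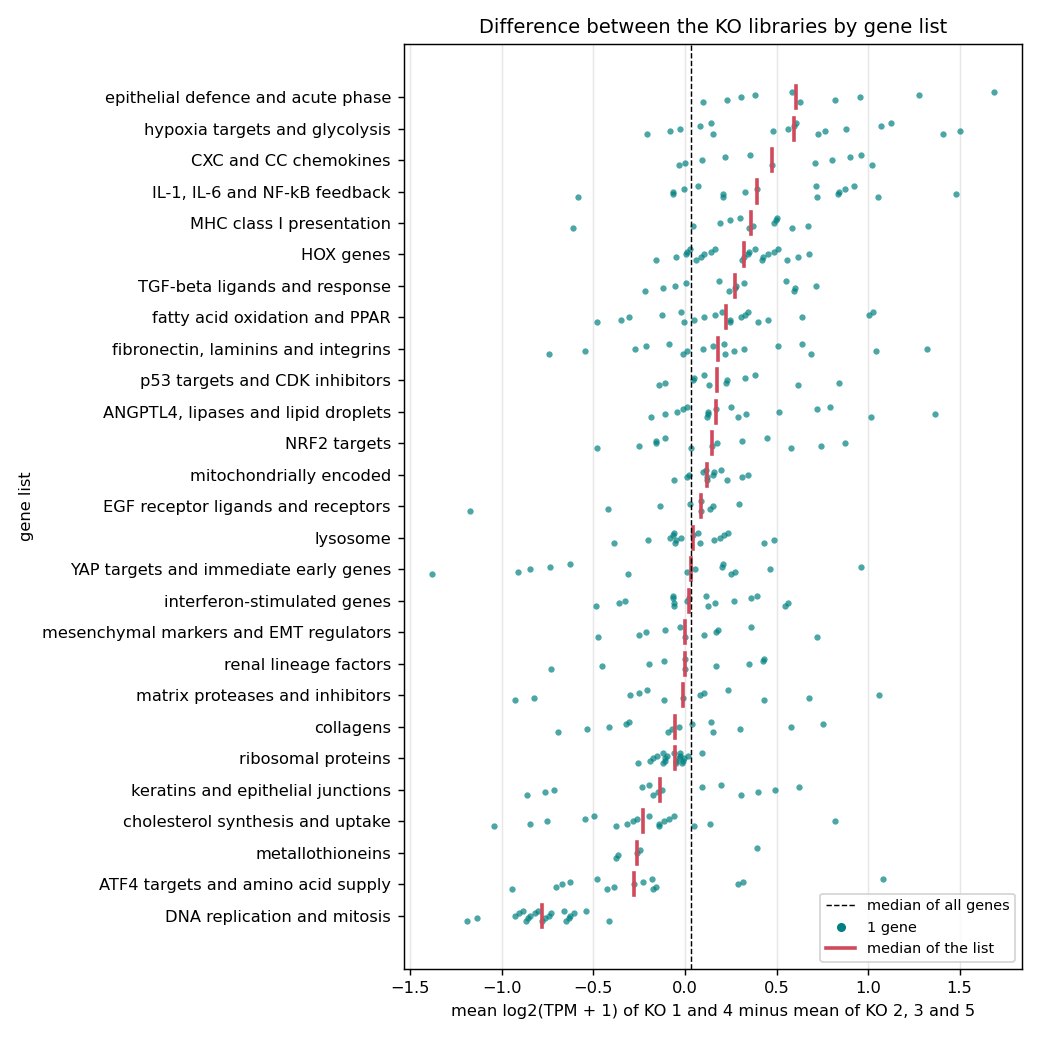
Mean log2(TPM + 1) of KO 1 and 4 minus the mean of KO 2, 3 and 5 for each gene (points) of each list other than the 4 lists of cell type markers (vertical axis), with the median of the list (bar) and of all genes (dashed line, 0.03). DNA replication and mitosis stands lowest of the lists plotted at -0.78, and the epithelial defence and hypoxia lists stand highest of them at 0.61 and 0.60.

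Epithelial and matrix genes set apart by at least 0.5 went both ways. Of 14 keratin and junction genes 1 was higher and 3 lower (median -0.14), of 14 collagens 1 was higher and 1 lower (median -0.05), and of 13 matrix proteases and inhibitors 2 were higher and 2 lower (median -0.01). Of 18 fibronectin, laminin and integrin genes 2 were higher and 1 lower (median 0.18). The background was 2.83% higher and 2.34% lower. The proteases were *MMP2* and *MMP3*, higher, and *MMP7* and *ADAMTS1*, lower. *KRT8* and *KRT18*, the keratin pair of simple epithelia, were at 265 and 305 against 493, 566 and 498 TPM, and at 223 and 259 against 383, 451 and 395. *KRT19* was at 9.78 and 10.1 against 17.5, 16.8 and 16.6 TPM. WT stood above both sets for all 3 keratins, at 1223 to 1702, 762 to 1175 and 175 to 259 TPM. *CLDN1*, a tight junction protein, was higher at 219.9 and 227 against 147, 150.4 and 137. *MMP7*, a matrix protease, was at 75.6 and 115 against 205, 169 and 165 TPM, and *MMP2* went the other way at 75.3 and 80.2 against 41.5, 31.4 and 38.3. *COL6A3* was at 21.7 and 24.4 against 37.2, 35.7 and 40.9 TPM and *COL7A1* at 113 and 89.5 against 60.7, 55.9 and 61.2.

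Of the other 22 genes with a margin of at least 1 that were higher in KO 1 and 4 and fell outside the first 15, those already given are *PTGS2*, *PTGDS*, *FN1*, *CA12*, *PLIN2* and *LCN2*. The rest ranged in margin from 1.01 to 1.14 and include *LRP1*, a scavenger receptor, at 62.2 and 60.4 against 28.7, 25.7 and 27.6 TPM, *BMF*, which promotes apoptosis, at 37.8 and 29.1 against 13.6, 9.99 and 11.9, and *TNFRSF11B*, osteoprotegerin, at 168 and 156 against 75.4, 65.4 and 64.3. *STC1*, *ARRDC3*, *ABCC3*, *ADAMTS5*, *TCIM*, *SAMD11*, *LMNTD2*, *GABRE*, *TBC1D9*, *IZUMO4*, *ATOH8*, *NCCRP1* and the pseudogene *NUS1P2* complete them. Among the first 15, *PPFIA4*, *SIPA1L2*, *MAN1A1*, *NREP* and the pseudogene *BASP1P1* had margins of 1.24 to 1.39, and reads of a pseudogene can be shared with its parent gene.

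In several lists no gene was set apart by at least 0.5. Lysosomal genes (0 of 17 by at least 0.5), NRF2 targets (0 of 13), ribosomal proteins (0 of 20), mesenchymal markers (0 of 11) and renal lineage factors (0 of 10) had medians between -0.06 and 0.15. By any margin, where the background is 33.9% higher and 26.1% lower, 1 ribosomal protein gene was higher and 9 lower, and 8 lysosomal genes were higher and 2 lower. The counts were 5 and 4 for NRF2 targets, 3 and 3 for mesenchymal markers and 4 and 3 for renal lineage factors. *GAPDH* overlapped at 4539 and 4353 against 4616, 4611 and 4435 TPM, whereas *PPIA* was at 3007 and 3052 against 4029, 4094 and 4228. Of 3 leukocyte markers measured 0 were set apart by 0.5, and 2 were higher and 0 lower by any margin. Of 7 renal epithelial markers 0 were higher and 2 lower by 0.5, and 3 were higher and 4 lower by any margin. Of 5 stromal markers 0 were set apart by 0.5, and 3 were higher and 0 lower by any margin. The 1 endothelial marker measured, *PECAM1*, was at 6.17 and 4.46 against 1.97, 1.54 and 2.32 TPM, and its part in the results was not tested.

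Genes set apart by at least 0.5 lay on all 23 chromosomes. Among genes with a mean log2 level above 2, higher genes made up 1.94% (chromosome 18) to 4.96% (chromosome 8). Lower genes made up 2.24% (chromosome 7) to 4.71% (chromosome 20). Over 11050 genes with a mean log2 level above 2, the median difference between the sets on each of 23 chromosomes ran from -0.02 (chromosome 12) to 0.05 (X). The same medians for KO 2, 3 and 5 minus WT ran wider, from -0.22 (chromosome 11) to 0.09 (chromosome 19). Across genes, the difference had a Spearman correlation of 0.127 with transcript length and 0.0649 with GC content over 12741 genes, as a description, since genes share the same libraries. Genes higher by at least 0.5 had a median GC content of 53.4%, against 47.6% for lower genes and 48.0% for all.

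**Figure D5:**
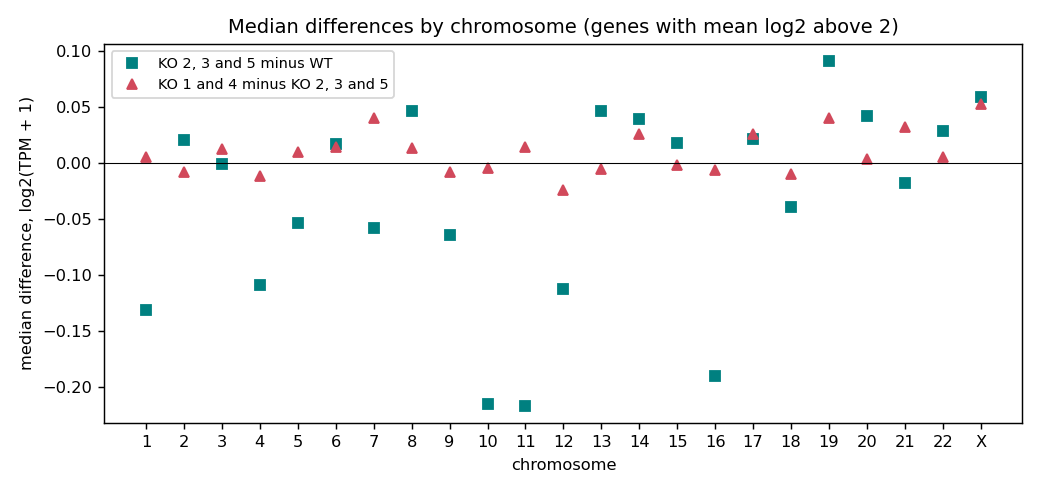
Median difference in log2(TPM + 1) on each chromosome (horizontal axis), for KO 1 and 4 minus KO 2, 3 and 5 (triangles) and for KO 2, 3 and 5 minus WT (squares). The triangles stay between -0.02 and 0.05, and the squares reach -0.22 on chromosome 11.

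The number of genes called in KO against WT here also changed with the KO libraries used. Over all 9 libraries 360 genes were called higher in KO than in WT (2.21% of 16296) and 183 lower (1.12%). With KO 1 and 4 left out, 261 were higher (1.6%) and 151 lower (0.927%). With KO 2, 3 and 5 left out, 648 were higher (3.98%) and 436 lower (2.68%). Of the 37 genes with a margin of at least 1, 20, 15 and 34 were called higher in those 3 fits, and of the 10 lower genes 2, 2 and 9 were called lower. These fits share the WT libraries and the sets were selected on the same values, so the counts describe and do not test the split.

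The genes were last looked up in 786O, whose 6 libraries did not enter the choice of the sets. There 393 of 16188 genes were called higher in KO than in WT (2.43%) and 840 lower (5.19%), and after quantile normalization 519 higher and 697 lower. Of the 37 genes higher in KO 1 and 4, 33 were measured, of which 1 was called higher and 11 lower (33.3%). Of the 10 lower genes, 9 were measured, with 0 called in either direction. Of the 461, 433 were measured, with 19 called higher (4.39%) and 55 lower (12.7%). Of the 381 lower genes, 375 were measured, with 8 called higher (2.13%) and 26 lower (6.93%). Of the 15247 genes measured in both lines, 2.43% were called higher and 5.23% lower in 786O. No test of these shares was made.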

How the data were processed

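RNA from CAKi-1 (4 WT, 5 KO) and 786O (3 WT, 3 KO) cells was sequenced as poly(A) libraries of paired reads of 150 bases, with a nominal 3000000 reads per library in the labels. Per the labels and methods, kallisto was run against hg38, and the authors deposited 1 value per gene and library, taken here as TPM because they are not whole numbers and sum to 961437 to 973887 in CAKi-1. How transcripts were summed to genes is not given in the sources used here. TPM keeps no depth, so no counting error is given. Genotype and replicate came from the labels. Nothing says that replicates came from separate cultures, so p-values measure only the spread between these libraries.

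The deposited values were used as log2(TPM + 1) with no filter, and fold changes on this scale understate those of low genes. KO was compared with WT in each line by limma 3.58.1 in R 4.3.3 (two-sided, p adjusted after Benjamini and Hochberg across the table of the line, called at a log2 change of at least 1 and adjusted p of at most 0.05). Tested on simulated data with 200 changed genes, this recovered 99% in CAKi-1 (16296 genes) and 100% in 786O (16188 genes). There were 0 false calls in each line. These values hold for the simulated data only. The share of changed genes that the calls recover in the deposited values was not tested. Between the KO sets only margins and differences were computed, with 31 gene lists. Gene positions are from GENCODE release 44 and promoters from RefSeq, and 12319 genes had a promoter. Named genes are *ANGPTL4*, the 15 largest margins of at least 1 in each direction, up to 4 genes of each list with the largest margins and the lipid genes of the study. Others are marked or are members of the lists described, and a few genes that the rule names are not reported here. The sets, lists, naming rule and motifs were chosen with earlier results of these data known. Replicate numbers were not used to pair the libraries. The deviations of same-numbered CAKi-1 libraries correlated at -0.06 to 0.13. The split among the KO libraries enters those deviations, so the correlations cannot exclude pairing. Alternatives were another pseudocount, a filter on low genes, quantile normalization, rescaling without mitochondrial genes, a rule on means, each library left out and the replicate number as a block.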

Additional observations from a re-analysis of the deposited data

Results flagged for a closer look

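Among 111 genes, those named above and others of the same lists, each group of 4 WT and of 5 KO libraries was searched for a single library far from the rest, by the gap to its nearest neighbour relative to the range of the group (Dixon's criterion on log2(TPM + 1)). In 222 groups 4 were found, all in WT. Chance alone gives about 1 in 20, but that rate does not hold for the KO groups. Many of the genes were named for the split among the KO libraries, where an extreme library has a near neighbour in its own set. The search could therefore hardly flag a KO library. *PPFIA4* was at 6.05 TPM in WT 4 against 4.62 to 4.83 in the other WT libraries. *ITGA6*, an integrin chain, was at 16.0 TPM in WT 4 against 19.6 to 20.1. *SAMD11* was at 5.36 TPM in WT 1 against 3.07 to 3.37. *MCM2*, a helicase subunit, was at 101 TPM in WT 2 against 98.9 to 99.1.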

How the results depend on the processing

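The 37 higher and 10 lower genes at a margin of 1 became 37 and 13 after quantile normalization, 43 and 9 without mitochondrial genes, and 37 and 10 with a mean of at least 1 TPM. They numbered 95 and 33 with a pseudocount of 0.1, and 105 and 30 with a mean difference of at least 1 and no overlap. Leaving out each KO library gave 44 to 81 higher and 12 to 28 lower genes, since fewer libraries leave wider gaps. The counts passed 1.5 times the full ones without KO 4 (81 and 28) and KO 2 (71 and 19), and for lower genes also without KO 1 (16). Among 111 genes, those named above and others of the same lists, 0 of those with a margin of at least 0.5 changed sign, and, depending on the setting, 0 to 25 moved by more than the spread within the sets (25 with a pseudocount of 0.1 and 25 after quantile normalization). Calls of KO against WT in CAKi-1 were 543 in all, 477 to 608 with each library left out, 1077 with a pseudocount of 0.1 and 1084 with KO 2, 3 and 5 left out together. In 786O they were 1233, 1221 to 1243 with each library left out, and 2095 with a pseudocount of 0.1. After quantile normalization 519 of 1216 calls in 786O were higher, against 393 of 1233. The replicate number as a block gave 603 calls in CAKi-1 (393 higher, 210 lower), where KO 5 has no partner and adds nothing to the fold change, and 1233 in 786O. The block leaves the fold changes of paired libraries as they are, so the 786O count equals that without it although genes at the adjusted p fell from 9874 to 9312. The realised depth of each library is not kept in TPM, which limits what low genes can show.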
